A study of Homo sapiens with 6 samples.

Results

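The small nucleolar RNA host genes (SNHG genes) and other well-known long noncoding RNAs were examined in RNA-seq libraries of HCT116, a human colon cancer cell line. Members were all genes of the count table named SNHG followed by a number, and 19 long noncoding RNAs named one by one, of which CCAT1 has no row. This gave 40 genes of 40173 in the table, 22 of them SNHG genes and 18 other long noncoding RNAs, with 368 transcripts of 151453 that carry a gene. The rule uses gene names and no measured value, but the members were chosen with earlier results of these data known. HCT116 cells with a wild type genotype label were infected with a control virus (MOCK) or with a lentivirus that carries the coding region of cytoglobin (CYGB) joined to a FLAG tag, and both populations were selected with puromycin. The MOCK group and the CYGB group hold 3 libraries each, and the comparison asks which of these RNAs differ in CYGB-overexpressing cells. Each group is 1 stably transduced population of 1 line as far as the sources say, and nothing states that libraries come from separate transductions, so p-values measure the spread between these libraries.

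SNHG genes are transcribed by RNA polymerase II and spliced, and their introns are cut out and trimmed to small nucleolar RNAs (snoRNAs), which guide chemical modification of ribosomal RNA and other RNAs. Many of the spliced SNHG RNAs carry stop codons early in short reading frames and are removed by nonsense-mediated decay when ribosomes bind them, and several begin with a pyrimidine-rich start of the kind found in ribosomal protein mRNAs. The other members act by different means: MALAT1 lies in nuclear speckles, NEAT1 builds paraspeckles, NORAD is a cytoplasmic RNA that guards chromosome stability, OIP5-AS1 binds the protein HuR and a microRNA, and TERC is the RNA template of telomerase. Many of them are studied in colon cancer as markers of growth.

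To show what the host genes carry, the first bases of 8 members were taken from RefSeq (GRCh38.p14). Each run holds 20 bases before and 40 bases from the RefSeq start on, and capitals mark CTTT where it lies within 10 bases before to 20 bases after the start. The first 6 are snoRNA host genes, shown so that their starts can be compared, and the last pair are members described below whose groups of libraries did not overlap.
SNHG1 (chr11:62855846-62855905, minus strand): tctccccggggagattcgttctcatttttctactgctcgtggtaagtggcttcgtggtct
SNHG5 (chr6:85678694-85678753, minus strand): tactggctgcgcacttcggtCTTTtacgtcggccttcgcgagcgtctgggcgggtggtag
SNHG12 (chr1:28581834-28581893, minus strand): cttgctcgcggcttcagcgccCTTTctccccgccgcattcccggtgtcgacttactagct
SNHG16 (chr17:76557744-76557803, plus strand): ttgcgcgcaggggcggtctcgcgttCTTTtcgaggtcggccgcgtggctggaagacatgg
SNHG19 (chr16:2155319-2155378, minus strand): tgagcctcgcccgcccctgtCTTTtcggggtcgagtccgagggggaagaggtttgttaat
ZFAS1 (chr20:49278622-49278681, plus strand): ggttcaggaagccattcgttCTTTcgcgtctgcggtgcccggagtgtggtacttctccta
EPB41L4A-AS1 (chr5:112160506-112160565, plus strand): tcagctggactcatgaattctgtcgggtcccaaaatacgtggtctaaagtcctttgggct
OIP5-AS1 (chr15:41283970-41284029, plus strand): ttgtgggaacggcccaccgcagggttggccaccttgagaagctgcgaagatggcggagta

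The letters CTTT on the transcribed strand lay in that window in 8 of the 31 members that matched a RefSeq promoter (25.8%), and in 15.1% of 27305 genes with a promoter. Among the matched SNHG genes the share was 38.9% (7 of 18), and among the other long noncoding RNAs ZFAS1 was the only member with it (1 of 13). SNHG1 has a run of T close to its start but not these letters in the window. The opposite-strand letters AAAG were present in 3.23% of the members and in 11.9% of all genes, and the palindrome CACGTG, searched in all 300 bases of the promoter, in 12.9% and 8.77%. The letters were chosen after the sequences were seen and are a description of these windows. The RefSeq start lies 1110 bases inside the annotated span of SNHG12 and 464 bases inside that of ZFAS1, so for these 2 genes it is not the first base of the table's gene. Members with CTTT had a median log2 fold change between CYGB and MOCK of -0.02 (8 tested), and matched members without it 0.10 (21 tested).

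GENCODE 29 places 136 entries for snoRNAs or small Cajal body RNAs (scaRNAs) on the same strand inside 25 members. These include all 22 SNHG genes, and 84 of the 136 entries lie in SNHG14. SNHG10, SNHG20, SNHG21 and SNHG22 hold only scaRNA entries, and some entries, such as those of SNORA16A and SNORA17B, overlap at 1 place. GENCODE 29 lists none inside GAS5, but no other source of snoRNA positions was searched, so this does not show that GAS5 carries none. Only 25 of the 136 entries have rows in the table, so the levels below are mainly those of the host RNAs. As an example of what a host gene carries, SNHG16 holds SNORD1C, SNORD1B and SNORD1A, whose sequences share a run of 17 bases, shown in capitals (GRCh38, plus strand). They lie in the order printed from the start of the gene.
SNORD1C (chr17:76558791-76558868): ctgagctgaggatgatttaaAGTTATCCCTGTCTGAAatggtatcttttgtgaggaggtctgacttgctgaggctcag
SNORD1B (chr17:76561109-76561192): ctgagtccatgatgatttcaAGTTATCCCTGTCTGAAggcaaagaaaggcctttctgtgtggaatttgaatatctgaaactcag
SNORD1A (chr17:76561634-76561705): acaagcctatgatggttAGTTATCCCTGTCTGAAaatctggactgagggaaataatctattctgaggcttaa

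The deposited values are raw counts per transcript, with library totals from 58138393 to 66035266. They were summed per gene and are given as counts, or as CPM, the count per 1000000 counts of the library after TMM scaling. The label CYGB was checked by its own gene, which gave 10, 28 and 34 counts in MOCK libraries, against 34935, 27681 and 32333 with CYGB. Colon epithelial markers were high, with KRT8 at 1802 and EPCAM at 328 CPM in MOCK, while VIL1 was under 1 CPM, LGALS4 did not pass the filter on low counts and CDX1 has no row. The summed level of 5 leukocyte markers was 0.656 to 0.758 CPM in MOCK and 0.807 to 1.16 CPM in CYGB libraries. The 3 endothelial markers summed to 0.855 to 1.38 CPM in MOCK and 0.433 to 1.88 CPM in CYGB. The 5 fibroblast markers summed to 44.4 to 50.5 CPM and 47.6 to 53.9 CPM, nearly all of it COL1A1. The part of these small differences in the results below was not tested, and in bulk RNA a smaller share of cells with an RNA and less of it per cell cannot be told apart.

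No member was called as different between CYGB-overexpressing and MOCK cells in edgeR's quasi-likelihood test, and DESeq2 called 1. Of the 40 genes, 37 passed the filter on low counts (21 SNHG genes and 16 others). A gene was called at an unadjusted p of at most 0.01 with a ratio of at least 2 or at most 0.5, the threshold of the study's methods. No member met it in edgeR's quasi-likelihood test (0 of 37, against 0.565% of all 19987 genes tested). With so low a share, 0 of 37 does not set the members apart from other genes. DESeq2 called 1, SNHG14, against 1.32% of all genes. No member had an adjusted p under 0.05 (Benjamini-Hochberg over all genes, 0.0550% of all genes) with edgeR's quasi-likelihood test, where the lowest was 0.963, or with DESeq2. At an unadjusted p under 0.05 in edgeR's quasi-likelihood test there were 4 members, SNHG14, SNHG16, GAS5 and EPB41L4A-AS1, all higher in CYGB. The share of all genes in that test was 4.54% in both directions and 2.15% higher. DESeq2 gave 5 members, adding JPX, and its share of all genes at this p is not given here. Libraries of the 2 groups did not overlap in 6 members (11.0% of all genes), 5 of them higher (5.72%) and 1 lower (5.31%).

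The members as a whole sat close to 0. Their median log2 fold change was 0.02, beside -0.01 for all genes, and 19 were above and 18 below 0. The median size of the difference, without its sign, was 0.18 for members and 0.18 for all genes. For 21 of the 37 members (56.8%) the 95% interval of the difference lay within 2-fold in both directions, and for 56.0% of all genes. The intervals of the remaining 16 members reached beyond 2-fold on at least 1 side.

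**Figure D1:**
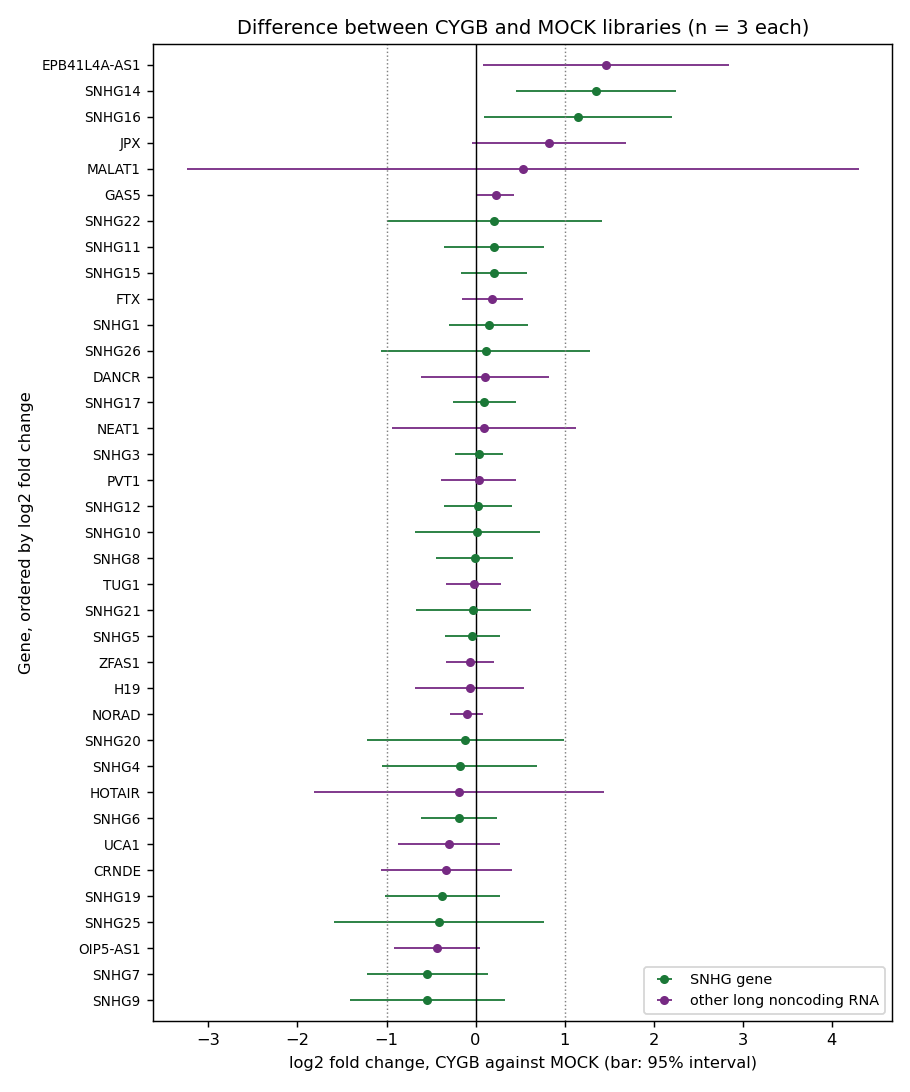
Log2 fold change between CYGB and MOCK libraries (horizontal axis) for the 37 tested members, ordered by size, with bars for 95% intervals and dotted lines at a 2-fold change either way. EPB41L4A-AS1, SNHG14, SNHG16 and GAS5 have intervals above 0, and the interval of MALAT1 runs from -3.24 to 4.31.

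SNHG16 (ENSG00000163597, chromosome 17 of GRCh38 from 76557766 to 76565348, plus strand), the host of the SNORD1 snoRNAs, was higher in every CYGB library. MOCK libraries held 950, 1833 and 3591 counts of it, and CYGB libraries 4741, 4964 and 4469. The MOCK libraries spread widely and the CYGB libraries lay close together, and the groups did not overlap. This corresponds to 41.5 ± 25.5 CPM in MOCK and 92.2 ± 6.46 CPM in CYGB (SD, n = 3), a log2 fold change of 1.15 ± 0.43 (SE). The unadjusted p was 0.0367 and the adjusted p 0.963 in edgeR's quasi-likelihood test, so the difference was not called. Without MOCK replicate 3, the highest of its group, it was 1.75 and past the threshold of the methods, and without MOCK replicate 1, the lowest, it was 0.82. SNHG16 begins 6591 bases from the span of the CYGB gene on the same chromosome, and AC015802.4, which covers the gap between them, was at 0.55 ± 0.08 CPM in MOCK and 0.50 ± 0.20 CPM in CYGB. The virus carries the CYGB coding region, and whether the place of the gene bears on its level was not tested. The spliced transcript ENST00000493536 held 66.7 to 88.4% of the gene's counts in MOCK and 88.3 to 92.9% in CYGB. Its share was lowest where the gene was lowest, and the intron-retaining ENST00000587743 had 141 to 173 counts in MOCK and 100 to 271 in CYGB.

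GAS5 (ENSG00000234741, chromosome 1 from 173863900 to 173868882, minus strand), a growth arrest gene whose spliced RNA is a known target of nonsense-mediated decay, showed a small difference in its summed counts that was even across libraries. Its level was 96.1, 104 and 110.4 CPM in MOCK and 126.9, 118 and 119 CPM in CYGB. All CYGB libraries were above all MOCK libraries. The log2 fold change was 0.23 with a 95% interval from 0.02 to 0.43 (unadjusted p = 0.0356, adjusted p = 0.963 in edgeR's quasi-likelihood test). It was thus the most closely bounded of the 4, and a 2-fold change lies outside its interval. The most counted of its 29 transcripts, ENST00000450589, held 34.5 to 38.6% in MOCK and 36.7 to 39.1% in CYGB, and none of its 150-base windows is found in this transcript alone. A minor transcript, ENST00000449289, ran the other way, with 65, 49 and 34 counts in MOCK against 2, 2 and 13 in CYGB. Its log2 fold change was -3.13 (unadjusted p = 0.0116 and adjusted p = 1.00 in edgeR's quasi-likelihood test), and the adjusted p was 0.0440 with DESeq2. ZBTB37, which overlaps GAS5 on the other strand, stood at 46.9 ± 3.28 CPM in MOCK and 40.05 ± 1.40 CPM in CYGB, the opposite direction (unadjusted p = 0.0600).

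EPB41L4A-AS1 (ENSG00000224032, chromosome 5 from 112160526 to 112164276, plus strand), which hosts 1 snoRNA and lies antisense within EPB41L4A, had the largest log2 fold change of the tested members, and most of it came from 1 library. Its counts were 229, 196 and 225 in MOCK and 1165, 374 and 279 in CYGB. MOCK libraries were nearly equal, and CYGB replicate 1 stood far above the others. The log2 fold change was 1.47 ± 0.57 (SE, unadjusted p = 0.0411, adjusted p = 0.963 in edgeR's quasi-likelihood test) and 0.55 without CYGB replicate 1. In that library the longer, 2969-base transcript ENST00000413221 had 727 counts, beside 50 to 126 in the other 5 libraries. The shorter ENST00000427306 had 438 counts there, beside 117 to 276. EPB41L4A itself stood at 14.7 ± 1.71 CPM in MOCK, against 12.8 ± 0.21 CPM in CYGB (log2 fold change -0.20).

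SNHG14 (ENSG00000224078, chromosome 15 from 24979557 to 25419462, plus strand) is the long host of the snoRNA clusters of the Prader-Willi region and runs antisense to UBE3A. Its counts were 18, 11 and 13 in MOCK and 39, 43 and 28 in CYGB. The groups did not overlap, but counts were few, and the mean over the 6 libraries was the lowest of all tested members in CPM. The MOCK level was 0.28 ± 0.09 CPM, and that of CYGB libraries 0.72 ± 0.16 CPM. The log2 fold change was 1.35 ± 0.37 (SE, unadjusted p = 0.0102, adjusted p = 0.963 in edgeR's quasi-likelihood test). With DESeq2 the unadjusted p was 0.00254 and the adjusted p 0.210. Without MOCK replicate 1 it passed the threshold of the methods in edgeR, with a log2 fold change of 1.63, and without MOCK replicate 2 the value was 1.17. The most counted transcript of SNHG14 was ENST00000453082, with 12, 8 and 8 in MOCK and 14, 28 and 17 in CYGB. In CYGB replicate 1 it thus held 14 of 39 counts, and the others fell on further transcripts. Its own log2 fold change was 1.05, and few reads in each library carry the result. UBE3A had 3896, 4797 and 4435 counts in MOCK and 7806, 4536 and 4873 in CYGB, with CYGB replicate 1 above the others. The kit named in the methods does not mark strand, so reads of the parts that overlap cannot be told apart. The same limit holds for EPB41L4A-AS1 with EPB41L4A, GAS5 with ZBTB37, and FTX with JPX, which also overlap on opposite strands.

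FTX and OIP5-AS1 had groups that did not overlap at an unadjusted p above 0.05. FTX, a noncoding gene of the X-inactivation centre, had 286, 355 and 306 counts in MOCK and 363, 368 and 360 in CYGB. On the CPM scale it was 6.24 ± 0.42 and 7.09 ± 0.21, a log2 fold change of 0.19 (unadjusted p = 0.235 in edgeR's quasi-likelihood test). JPX, which overlaps FTX on the other strand and is itself a member, had a log2 fold change of 0.83 with overlapping groups and an unadjusted p of 0.0578. OIP5-AS1 (ENSG00000247556, chromosome 15 from 41283990 to 41309737, plus strand) was lower in CYGB, at 7983, 10354 and 8064 counts in MOCK and 4698, 7461 and 7688 in CYGB. CYGB replicate 1 was the lowest and the other two lay just under the MOCK libraries. Its log2 fold change was -0.43 ± 0.20 (SE, unadjusted p = 0.0706) and -0.25 without CYGB replicate 1. ENST00000500949, 8829 bases long, held 93.1 to 95.9% of its counts in all libraries.

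**Figure D2:**
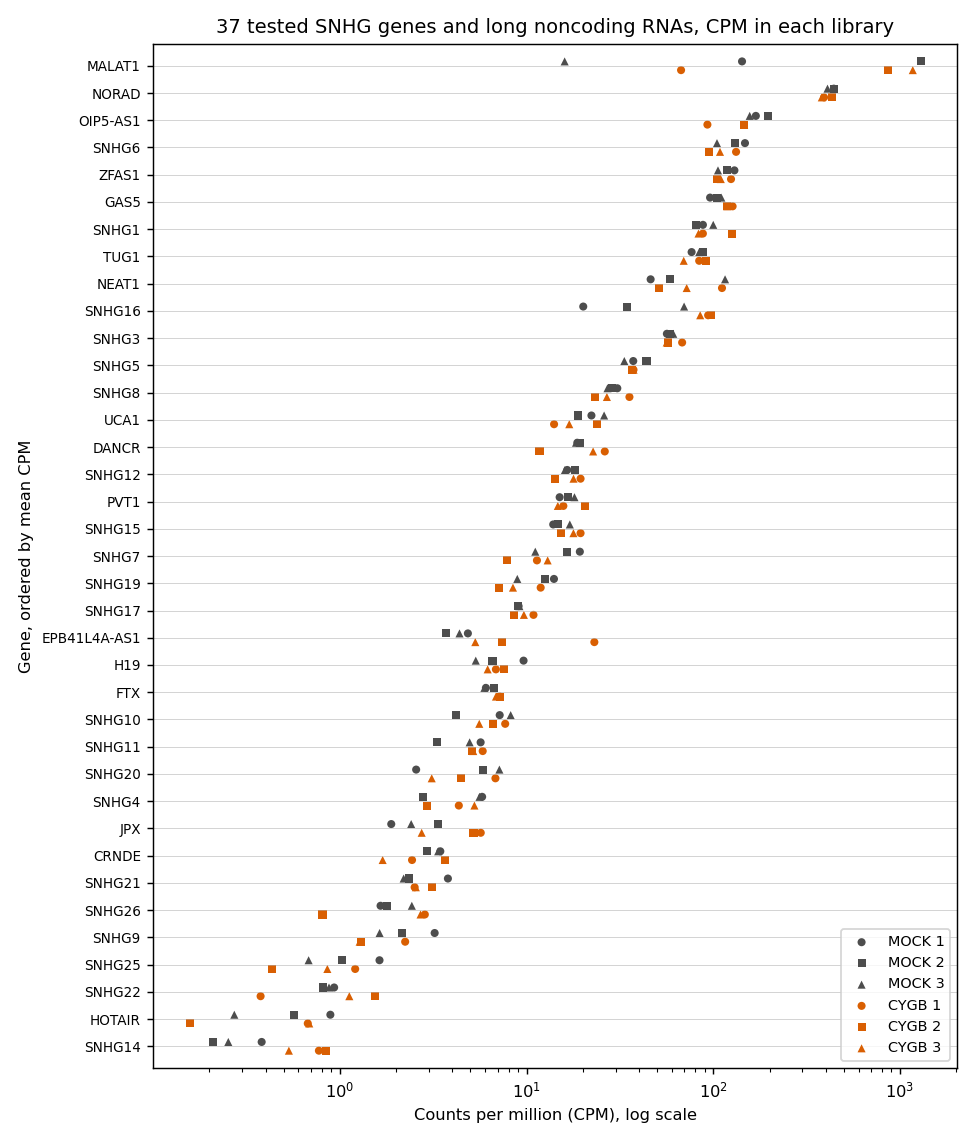
CPM (log scale) of the 37 tested members in each of the 6 libraries, MOCK in grey and CYGB in orange, with 1 symbol for each replicate number and genes ordered by mean CPM. MALAT1 spreads over 16.0 to 1294 CPM with the groups mixed, while NORAD, GAS5 and TUG1 form tight clusters.

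MALAT1 (ENSG00000251562, chromosome 11 from 65497688 to 65506516, plus strand), the nuclear speckle RNA, had the highest mean CPM of the members and by far the widest spread. Its counts were 6733, 68373 and 823 in MOCK and 3395, 43852 and 61484 in CYGB. High and low libraries occur in both groups, and the highest was 80.9 times the lowest on the CPM scale. The means were 484 ± 704 CPM in MOCK and 700.2 ± 569 CPM in CYGB (SD, n = 3), a log2 fold change of 0.53 with a 95% interval from -3.24 to 4.31. A change between groups was thus not detectable, and these libraries bound it poorly. The SD of log2(CPM + 0.5) within a group was 2.74 for MALAT1, higher than in 99.8% of the 14772 tested genes that averaged 1 CPM or more. The median SD of all members was 0.30 and that of all genes tested 0.23. NORAD held at 431 ± 18.7 CPM in MOCK and 402 ± 27.0 CPM in CYGB, so libraries low in MALAT1 were not low in NORAD.

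The isoforms of MALAT1 went with its level. The 5340-base ENST00000619449 had 46928, 28468 and 52660 counts in the 3 high libraries (MOCK replicate 2, CYGB replicates 2 and 3) and 16, 1 and 17 counts in the 3 low ones. The 8708-base ENST00000534336 held 99.4% and 98.8% of the gene's counts in MOCK replicate 1 and CYGB replicate 1, and 10.6 to 35.0% in the other 4 libraries. The 1519-base ENST00000508832 held 66.5% in MOCK replicate 3, the lowest library, and at most 6.17% elsewhere. These transcripts overlap, and 7.11, 30.0 and 10.9% of their 150-base windows are found in no other MALAT1 transcript. How reads shared by isoforms were divided is not given in the sources used here. None of the 3 transcripts differed beyond the spread between libraries, with unadjusted p-values from 0.733 to 0.947 in edgeR's quasi-likelihood test.

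**Figure D3:**
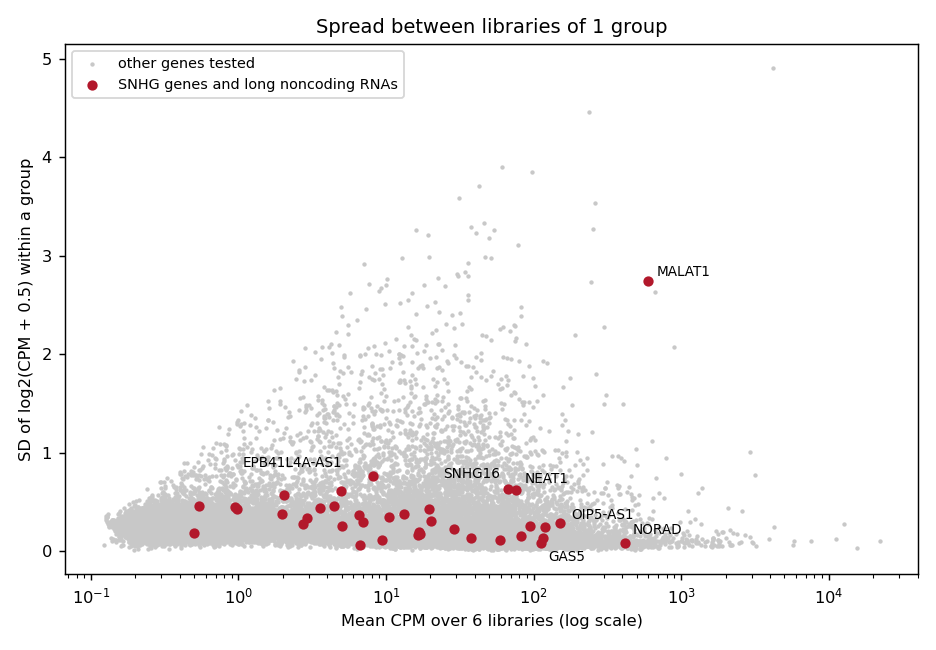
SD of log2(CPM + 0.5) between libraries of a group (vertical axis) against mean CPM over the 6 libraries (log scale) for the members (red) and all other tested genes (grey). MALAT1 stands at 2.74, and NORAD and GAS5 at 0.08.

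MALAT1 also set how much of a library the members took up. All 40 members together held 0.167, 0.284 and 0.156% of the counts with a gene in MOCK and 0.168, 0.243 and 0.259% in CYGB. Without MALAT1 the share was 0.154 ± 0.0012% in MOCK and 0.154 ± 0.0087% in CYGB (SD, n = 3). The 22 SNHG genes together held 0.0482 ± 0.0010% in MOCK and 0.0524 ± 0.0042% in CYGB.

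NEAT1 (ENSG00000245532, chromosome 11 from 65422774 to 65445540, plus strand), which lies near MALAT1 and scaffolds paraspeckles, had 2181, 3085 and 5952 counts in MOCK and 5624, 2612 and 3783 in CYGB. The groups overlapped throughout, and the libraries high in NEAT1 (MOCK replicate 3 and CYGB replicate 1) were low in MALAT1, as was MOCK replicate 1, which had the lowest NEAT1 level of all at 46.2 CPM. Its log2 fold change was 0.09 with a 95% interval from -0.94 to 1.13. The 22743-base isoform ENST00000501122, the form that builds paraspeckles, held 77.0 to 90.5% of the counts in MOCK and 90.0 to 91.4% in CYGB. The 3441-base ENST00000499732 held 5.28 to 12.8% and 6.58 to 8.77%.

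A NEAT1 transcript of 3300 bases, ENST00000645023 (65423125 to 65426499), was the only one of 210 tested member transcripts to pass the threshold in edgeR's quasi-likelihood test, while 4 passed it with DESeq2, this one, ENST00000449289 of GAS5, ENST00000513259 of SNHG4 and ENST00000558952 of CRNDE, all lower in CYGB. Of all 66609 transcripts tested 1.02% passed it in edgeR's quasi-likelihood test, 0.482% lower and 0.540% higher in CYGB. With DESeq2 2.26% of all transcripts passed it, and 1.12% had an adjusted p under 0.05. The NEAT1 transcript had 39, 163 and 33 counts in MOCK and 0, 0 and 0 in CYGB. Its MOCK mean was 25.9 times a floor of 3 counts per library in CYGB, and 12.5 times without MOCK replicate 2, the highest library. The floor covers counting error only, and not the spread between libraries or the division of reads among isoforms. The unadjusted p was 0.00369 and the adjusted p 0.564 in edgeR's quasi-likelihood test, and DESeq2 gave an adjusted p of 2.39e-05. Only 3.01% of its 150-base windows are found in no other NEAT1 transcript, and it held 0.554 to 5.28% of the gene's counts in MOCK. At an unadjusted p under 0.05 there were 6 member transcripts, beside 3.78% of all transcripts, and none had an adjusted p under 0.05 in edgeR's quasi-likelihood test.

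NORAD (ENSG00000260032, chromosome 20 from 36045622 to 36050960, minus strand), a single-exon RNA induced by DNA damage, was the most even of the abundant members. It had 20879, 23281 and 21051 counts in MOCK and 19799, 21971 and 20019 in CYGB, all on 1 transcript. The groups overlapped, and its log2 fold change was -0.10 with a 95% interval from -0.29 to 0.09, well inside a 2-fold change.

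TUG1 (ENSG00000253352, chromosome 22 from 30969245 to 30979395, plus strand), a widely expressed RNA with a nuclear and a cytoplasmic form, differed little between the groups while its isoforms swapped in 1 library. Its counts were 3615, 4650 and 4327 in MOCK and 4245, 4637 and 3647 in CYGB, a log2 fold change of -0.02 with a 95% interval from -0.33 to 0.28. ENST00000643077 held 71.8 to 80.3% of the counts in 5 libraries and 1.18% in CYGB replicate 3. There ENST00000569384 held 81.4%, with 2969 counts, and it had 0 counts in the other 5 libraries. Only 0.478% and 6.35% of their 150-base windows are found in no other TUG1 transcript. The summed level of the gene in that library was 69.4 CPM, the lowest of the 6, beside 76.5 to 91.2 CPM in the others. The basis of the swap was not tested.

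**Figure D4:**
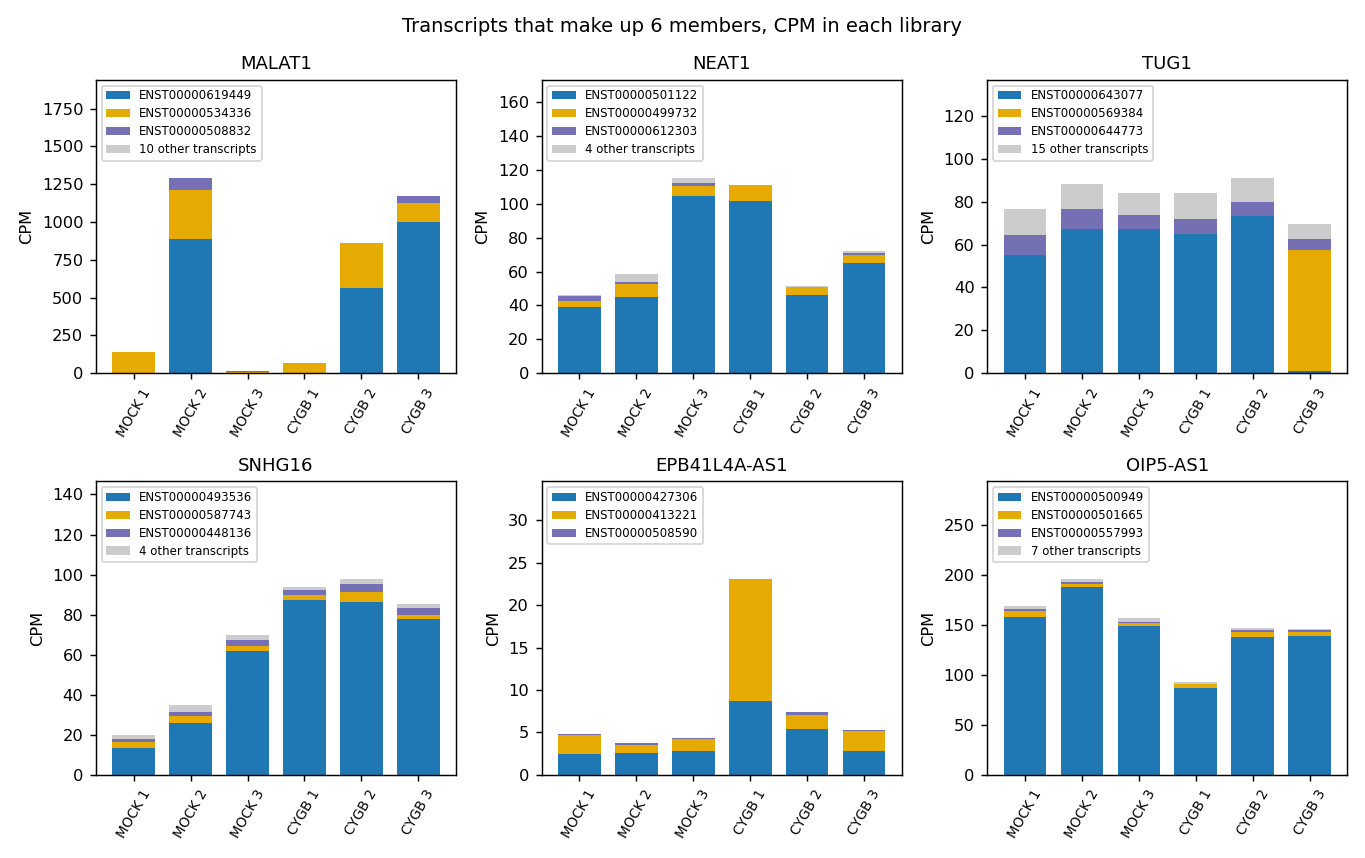
CPM of the 3 most counted transcripts (colours) and of all other transcripts (grey) of MALAT1, NEAT1, TUG1, SNHG16, EPB41L4A-AS1 and OIP5-AS1, stacked for each of the 6 libraries on a linear axis from 0. TUG1 stands at 69.4 CPM in CYGB 3 with another main transcript than elsewhere, and EPB41L4A-AS1 is high in CYGB 1.

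The other abundant snoRNA hosts showed no difference beyond the spread between libraries. SNHG6, the host of SNORD87, had 6982, 6871 and 5387 counts in MOCK and 6690, 4841 and 5705 in CYGB (log2 fold change -0.19, 95% interval -0.61 to 0.24). ZFAS1, which starts next to the promoter of ZNFX1 and hosts the SNORD12 snoRNAs, had 6129, 6225 and 5454 counts in MOCK and 6287, 5339 and 5761 in CYGB (-0.06, -0.33 to 0.21). For both, MOCK and CYGB libraries were interleaved. SNHG1 had 4156, 4269 and 5144 counts in MOCK and 4443, 6419 and 4377 in CYGB (0.15, -0.30 to 0.59), with CYGB replicate 2 alone above the MOCK libraries. SNHG3, the host of the U17 snoRNAs, had 2665, 3113 and 3141 counts in MOCK and 3440, 2892 and 2957 in CYGB (0.04, -0.23 to 0.31), and it overlaps RCC1 on the same strand. SNHG5, the host of the U50 snoRNA, had 1760, 2319 and 1718 counts in MOCK and 1888, 1875 and 1964 in CYGB (-0.04, -0.35 to 0.27). A 2-fold change lies outside the interval of each of these 5 genes.

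Isoforms within these hosts moved between libraries more than their sums did. In SNHG1, the intron-retaining ENST00000535076 had 2603 counts in CYGB replicate 2 and 282 to 951 in the other libraries, and this is the library in which the gene was highest. In SNHG5, ENST00000420199 had 862 counts in CYGB replicate 3 and 71 to 121 elsewhere. ZFAS1 and SNHG3 were even, with ENST00000371743 at 40.3 to 55.9% of ZFAS1 and ENST00000413987 at 56.6 to 63.7% of SNHG3.

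Levels were compared between members per length, as CPM divided by the length of each transcript in kilobases and summed over a gene. On this scale SNHG6 was the highest with 204 ± 37.7 CPM per kilobase (SD, n = 6), followed by GAS5 (147 ± 14.4), ZFAS1 (124 ± 10.7) and MALAT1 (110.4 ± 115). GAS5 and ZFAS1 differed by less than the sum of their SDs, and MALAT1 cannot be placed because of its spread. SNHG1 (88.4 ± 19.1) and NORAD (77.9 ± 4.88) came next and also lay within their spread. NEAT1 (6.34 ± 1.79) was far lower on this scale than in CPM, since its main isoform is very long. FTX (1.12 ± 0.15) and SNHG14 (0.197 ± 0.149) were near the bottom.

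The remaining 22 tested members had mean levels from 0.541 to 28.7 CPM and log2 fold changes from -0.54 to 0.83, and their lowest unadjusted p was 0.0578, that of JPX. They include SNHG7, SNHG8, SNHG12, SNHG15 and SNHG17 and the cancer-linked PVT1, UCA1, H19, CRNDE, DANCR and HOTAIR. HOTAIR was low, with 42, 30 and 14 counts in MOCK and 34, 8 and 36 in CYGB. In all, 6 members had a highest library more than 4 times the lowest, and only MALAT1 had a mean above 100 CPM among them. The 3 untested members had few or no counts under their own entries. MEG3, an imprinted RNA, had 0, 2 and 12 counts in MOCK and 4, 5 and 4 in CYGB, and SNHG28 had 11 counts in MOCK replicate 2, 29 in CYGB replicate 3 and 0 in the other 4 libraries. TERC had 0 counts in all 6 libraries, which allows at most 0.0568 to 0.0635 CPM under this entry in a library (3 counts, counting error only). A second entry for the same telomerase RNA, RF00024 (chromosome 3 from 169764610 to 169765047), lies inside TERC and had 46, 56 and 28 counts in MOCK and 28, 24 and 52 in CYGB, so the count of TERC alone does not measure this RNA.

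Proteins that act on or with these RNAs were followed as 6 lists of 67 genes, of which 66 were tested. None had an unadjusted p under 0.05 in edgeR's quasi-likelihood test (0 of 66, beside 4.54% of all genes), and the median log2 fold change was 0.01. DESeq2 gave 2, and its share of all genes at this p is not given here, so this count has no background. The 21 genes of nonsense-mediated decay, which clears many SNHG RNAs, had a median of 0.01, with 11 above and 10 below 0. The 18 proteins that form and assemble snoRNA particles had a median of 0.09 (10 above, 8 below), and the 12 paraspeckle and speckle proteins 0.07 (7 above, 5 below). The 8 Polycomb genes ranged from -0.55 to 1.37 with a median of -0.03. The highest, JARID2, had 813, 819 and 782 counts in MOCK and 4406, 1345 and 522 in CYGB. Its groups overlapped, and CYGB replicate 1 stood far above the other libraries. The 4 telomerase partners tested ranged from -0.08 to 0.09.

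The genes next to the 15 members described in full were read from the same fit. Of 43 tested neighbours, 4 had an unadjusted p under 0.05 (9.30%, beside 4.54% of all genes), and none passed the threshold of the methods in edgeR's quasi-likelihood test. None of the 14 that overlap a member was among the 4. SLC3A2, the heavy chain of the cystine and glutamate exchanger, begins 188 bases upstream of SNHG1 on the other strand. It had 8555, 5257 and 8993 counts in MOCK and 14383, 12188 and 13510 in CYGB, with no overlap (log2 fold change 0.78, unadjusted p = 0.0154, adjusted p = 0.963), while SNHG1 stood at 0.15. CHP1, which ends 2100 bases before OIP5-AS1 on the same strand, had 7519, 8323 and 2098 counts in MOCK and 1536, 1764 and 2610 in CYGB (-1.64, unadjusted p = 0.0203). Its groups overlapped, since MOCK replicate 3 was as low as the CYGB libraries. EPB41L1, 40544 bases from NORAD, had 923, 1206 and 403 counts in MOCK and 2001, 2175 and 2239 in CYGB (1.32, unadjusted p = 0.0134). MORC2, 947 bases before TUG1, had 465, 184 and 68 counts in MOCK and 363, 1724 and 1316 in CYGB (2.18, unadjusted p = 0.0447). In both pairs the member itself differed by at most 0.10 on the log2 scale.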

How the data were processed

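RNA of 3 MOCK and 3 CYGB libraries of HCT116 cells was sequenced by the authors with paired 150-base reads (NEBNext Ultra RNA kit). The deposited values are the authors' raw counts of reads for each transcript, not normalized. The submitters' processing notes name HISAT, HISAT2, DESeq2 and hg19 without a role. The counting tool and the division of reads among isoforms are not given in the sources used here. All 368 member transcripts are in GENCODE 29, 356 of them at the same position, so coordinates are those of GRCh38 and not of hg19.

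Counts were summed per gene. Transcripts without a gene (18.6 to 19.5% of counts) were left out. All genes (19987 tested) and all transcripts (66609 tested) were filtered with filterByExpr (minimum count 10), scaled by TMM and tested with edgeR 4.0.16 (glmQLFit, glmQLFTest) in R 4.3.3, CYGB against MOCK, with Benjamini-Hochberg adjustment over all features. The threshold was p at most 0.01 and a ratio of at least 2 or at most 0.5. The common dispersion amounted to a coefficient of variation of 36.6% for genes and 78.9% for transcripts. In simulated counts with 200 features changed 8-fold, 96.5% of changed genes (19987 features in all) and 72.5% of changed transcripts (66609 features) passed the threshold. An adjusted p under 0.05 was reached by 92% and 0% of them. Of the unchanged features, 131 genes and 565 transcripts also passed the threshold, and 11 and 0 reached an adjusted p under 0.05. The changed features all had a mean above 1 CPM. These shares do not tell how often smaller differences, or low members such as SNHG14, would pass. Any pair of libraries differed far beyond sampling noise (lowest chi-square 81.9 per gene), and each library was 1 replicate.

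Alternatives were DESeq2 1.42.0, its size factors, no filter, a mean of at least 50 counts, and inclusion of transcripts without a gene. Further alternatives were a replicate block and each library left out in turn. For the ratio of the NEAT1 transcript to the floor, leaving out libraries was chosen after seeing the data. Full values were given for members with an unadjusted p under 0.05, without overlap between groups, among the 12 highest in mean CPM, or with a transcript past the threshold. Transcripts were named where past the threshold or of largest share. Further isoforms, neighbours, low members and the partner gene JARID2 were named after their values were seen. Members and gene lists were chosen with earlier results of these data known. Promoter windows and their starts are from RefSeq (GRCh38.p14), with 31 of 40 members matched, and snoRNAs from GENCODE 29. Values of some partner and neighbour genes are not reported here. Depth intervals and floors cover counting error only.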

Additional observations from a re-analysis of the deposited data

How the results depend on the processing

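The count of members past the threshold of the methods was 0, and 1 with DESeq2, and 0 to 1 when a library was left out (SNHG14 without MOCK replicate 1, SNHG16 without MOCK replicate 3). The count at an unadjusted p under 0.05 was 4, and 2 with transcripts without a gene included, and 1 to 5 when a library was left out (1 without CYGB replicate 1, 2 without MOCK replicate 1 or MOCK replicate 2). With a replicate block it was 2. The numbers did not pair the libraries (correlations of same-numbered libraries 0.0159, 0.00487 and 0.0253). The member transcripts past the threshold numbered 1, and 4 with DESeq2, 0 at a mean of at least 50 counts, 0 with the replicate block and 2 to 6 when a library was left out. Partner genes at an unadjusted p under 0.05 numbered 0, and 2 with DESeq2, 2 with no expression filter, 2 with the replicate block and 1 to 4 when a library was left out. The cause of these shifts was not tested. The sign of the log2 fold change turned for some members when a library was left out, over -0.062 to 3.14 for MALAT1 (below 0 without MOCK replicate 3 or CYGB replicate 3), -0.25 to 0.58 for NEAT1, -0.068 to 0.26 for SNHG1, -0.056 to 0.091 for SNHG3, -0.12 to 0.076 for SNHG5, -0.11 to 0.083 for TUG1 and -0.14 to 0.014 for ZFAS1. No member gene reached an adjusted p under 0.05 under any of these settings. Among member transcripts, ENST00000449289 of GAS5 and ENST00000645023 of NEAT1 did with DESeq2, beside 1.12% of all transcripts. The log2 fold change of CYGB stayed between 10.01 and 10.68 when a library was left out (adjusted p = 0.170 with the replicate block). All genes together gave 113 calls with edgeR and 263 with DESeq2 (1.32%), and transcripts 681 and 1506 (2.26%). Isoform assignment limits the transcript values, and low counts limit SNHG14.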
